A study of Homo sapiens with 29 samples.

Results

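Transcripts of 9 genes were followed across 29 xenograft tumours: the ligands EREG (epiregulin), AREG (amphiregulin), HBEGF (heparin-binding EGF-like growth factor), TGFA (transforming growth factor alpha) and NRG1 (neuregulin 1), and the receptors EGFR, ERBB2, ERBB3 and MET. Members were taken by symbol from the 58302 genes of the count table, each through its Ensembl identifier, and all 9 were among the 13495 genes that passed the filter on low counts. The tumours came from MDA-MB-231, a triple-negative human breast cancer cell line, or from a derivative resistant to paclitaxel, and are here called parental and resistant. The hosts were SCID-beige mice, which have no mature lymphocytes of the T or B lineage but keep other cells such as myeloid, vascular and connective tissue cells. Mice received vehicle, 0.4 mg/kg decitabine, an inhibitor of DNA methylation, 1 mg/kg doxorubicin, a DNA-damaging anthracycline, or both, over 26 days (2 cycles, each of 12 days, and a rest of 2 days). The parental groups held 4 vehicle, 4 decitabine, 3 doxorubicin and 4 combination libraries, and the resistant groups held 4, 3, 4 and 3 in the same order. Parental tumours were started from 250000 cells and treated from day 6, while resistant tumours were started from 1500000 cells and treated from day 16, so the line, the cell number and the starting day cannot be told apart. Injection was bilateral and the labels do not say which mouse a library came from, so libraries of a group may share an animal and p-values measure only the spread between samples. Whether the resistant derivative was a single clone was not given in the sources used here.

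EGFR, ERBB2 and ERBB3 are receptor tyrosine kinases that signal as pairs. EGFR binds EREG, AREG, HBEGF and TGFA, ERBB3 binds NRG1 and has little kinase activity of its own, and ERBB2 has no known ligand and acts as the partner. The ligands are made as membrane proteins and released by metalloproteases, and the activated receptors feed the RAS-MAPK and PI3K-AKT pathways, which in turn induce feedback inhibitors. MET is the receptor of hepatocyte growth factor and uses many of the same adaptors. In triple-negative tumours EGFR is commonly abundant, and MDA-MB-231 cells carry activating mutations downstream of these receptors.

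EREG and AREG are neighbours in a ligand cluster on chromosome 4 (GENCODE 29, GRCh38), with AREG beginning 56.4 kb after the end of EREG. Because decitabine acts on the methylation of CG dinucleotides, the 250 bases before the RefSeq start (GRCh38.p14) are shown for these neighbours and for HBEGF, the ligand that differed between the lines in the opposite direction. CG dinucleotides are in capitals and each sequence is on the strand of its gene. The windows are chr4:74364895-74365144 for EREG, chr4:74444886-74445135 for AREG and chr5:140346604-140346853 for HBEGF.
EREG: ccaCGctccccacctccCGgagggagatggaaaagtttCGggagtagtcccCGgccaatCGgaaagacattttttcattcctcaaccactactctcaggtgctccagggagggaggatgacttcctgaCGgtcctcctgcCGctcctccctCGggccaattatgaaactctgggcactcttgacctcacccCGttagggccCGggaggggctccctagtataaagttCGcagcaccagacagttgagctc
AREG: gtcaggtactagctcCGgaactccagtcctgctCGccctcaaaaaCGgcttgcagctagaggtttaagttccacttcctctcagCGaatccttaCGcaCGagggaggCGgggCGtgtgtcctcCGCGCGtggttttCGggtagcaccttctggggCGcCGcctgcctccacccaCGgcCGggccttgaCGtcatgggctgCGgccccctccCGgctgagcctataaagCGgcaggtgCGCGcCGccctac
HBEGF: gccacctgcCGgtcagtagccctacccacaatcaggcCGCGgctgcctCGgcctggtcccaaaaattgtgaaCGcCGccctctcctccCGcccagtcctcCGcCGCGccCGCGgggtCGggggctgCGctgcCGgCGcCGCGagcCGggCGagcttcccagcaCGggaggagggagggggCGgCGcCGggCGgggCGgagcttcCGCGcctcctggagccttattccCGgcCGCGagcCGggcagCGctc
The EREG window held 11 CG dinucleotides, equal to the median of 35116 such windows in the RefSeq promoter table. The AREG window held 23, and 74.2% of windows held fewer. The HBEGF window held 33, and 91.9% of windows held fewer. The palindrome TGACGTCA, known as a cyclic AMP response element, was searched on both strands and occurred once in the AREG window, as it did in 1.65% of all windows, and in neither of the other windows shown. RefSeq windows were matched for 7 of the 9 genes, not for ERBB3 and NRG1. Methylation was not measured, and a match is a description of the letters only.

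Library totals ran from 3398261 to 5382295 counts, with a median of 4600007. Tags were counted near the 3′ end and do not scale with transcript length. Members are compared between groups and not ranked against each other by level. Sums of marker genes are dominated by their most abundant genes. Levels are CPM, the counts of a gene on the usual scale relative to the scaled library total. The mesenchymal markers of this line were abundant, with VIM (vimentin) between 1449 and 3031 CPM, and the hormone receptor genes were almost silent, with 97 counts of ESR1 and 1 of PGR over all libraries, although the luminal gene GATA3 was present at 22.1 to 52.8 CPM. CD3E and MS4A1, which define T and B cells, and ADIPOQ, which defines fat cells, had no count in any library. On the second principal component the parental vehicle library 3 and the resistant decitabine library 2 stood apart from the others. Every call of a member was recomputed without them. Tumours were measured in bulk, so fewer cells of a type and less RNA per cell cannot be told apart.

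In GENCODE 29 on GRCh38 the genes lie at chr4:74365143-74388751 (EREG, plus strand), chr4:74445134-74455009 (AREG, plus strand), chr5:140332843-140346631 (HBEGF, minus strand), chr2:70447280-70554193 (TGFA, minus strand), chr8:31639386-32767959 (NRG1, plus strand), chr7:55019021-55211628 (EGFR, plus strand), chr17:39687914-39730426 (ERBB2, plus strand), chr12:56076799-56103505 (ERBB3, plus strand) and chr7:116672390-116798386 (MET, plus strand). No annotated antisense or intronic gene of these loci that was looked up (EGFR-AS1, NRG1-IT1, TGFA-IT1 and MIR4728) had more than 2 counts over all libraries.

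Averaged over the 4 treatments, all 5 ligands differed between the lines: NRG1, EREG, TGFA and AREG were lower in resistant tumours, by log2 values of -1.12, -1.003, -0.85 and -0.55, and HBEGF was higher, by 0.88. Among the 4 receptors ERBB2 and ERBB3 were higher, by 0.22 and 0.39, while EGFR and MET did not pass. That made 7 of 9 members called, against 46% of the 13495 genes tested (edgeR quasi-likelihood test, adjusted p under 0.05), so that a call in this contrast was common among all genes. The median log2 difference of the 9 was -0.05, beside -0.003 for all genes tested.

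NRG1, the neuregulin that binds ERBB3, gave the clearest separation. In vehicle tumours it stood at 96.7, 91.5, 102 and 81.4 CPM in the parental libraries and at 31.3, 47.9, 59.5 and 50.9 CPM in the resistant ones. No resistant library reached a parental one, here or under any treatment. Over all 15 parental libraries NRG1 ran from 71.6 to 105 CPM, with a median of 91.2, and over all 14 resistant libraries from 29.2 to 59.5, with a median of 43.2. It was the only member whose lines did not overlap over all 29 libraries, a pattern that 3.34% of the genes tested showed. Resistant minus parental, its log2 difference was -0.97 ± 0.15 (SE) with vehicle (adjusted p = 2.9e-05), -1.37 ± 0.17 with decitabine, -1.20 ± 0.16 with doxorubicin and -0.92 ± 0.17 with the combination.

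EREG, which activates EGFR and ERBB4, was also lower in resistant tumours. In vehicle tumours it stood at 16.0, 21.1, 21.9 and 28.7 CPM in the parental libraries and at 7.77, 7.35, 10.4 and 9.04 CPM in the resistant ones, on 29 to 126 counts per library. The groups did not overlap in any of the 4 treatments. Its log2 difference was -1.34 ± 0.20 with vehicle (adjusted p = 1.82e-05), -1.19 ± 0.21 with decitabine and -0.85 ± 0.20 with the combination. With doxorubicin it was -0.64 ± 0.22 (adjusted p = 0.0439), and this last call was lost without any 1 of the parental doxorubicin libraries 1, 2 and 3 or of the resistant doxorubicin libraries 2, 3 and 4, with adjusted p-values from 0.0556 to 0.184. Scaling by size factors or by the upper quartile also lost it (adjusted p = 0.0505 and 0.0699).

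HBEGF, a ligand of EGFR and ERBB4 that is anchored in the membrane until shed, went the other way. In vehicle tumours it stood at 137, 119, 154 and 91.2 CPM in the parental libraries and at 261, 268, 183 and 261 CPM in the resistant ones. Every resistant library lay above every parental library given the same treatment, although the lowest resistant library of all, at 183 CPM, lay under the highest parental one of all, a decitabine library at 201. Its log2 difference was 0.96 ± 0.15 with vehicle (adjusted p = 4.39e-05), 0.74 ± 0.16 with decitabine, 0.74 ± 0.17 with doxorubicin and 1.10 ± 0.16 with the combination.

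TGFA and AREG, both ligands of EGFR alone, were called between the lines in some treatments. TGFA in decitabine tumours stood at 156, 165, 137 and 186 CPM in the parental libraries and at 85.9, 52.3 and 89.0 CPM in the resistant ones, a log2 difference of -1.08 ± 0.25 (adjusted p = 0.00239). Under doxorubicin the difference was -1.13 ± 0.24 (adjusted p = 0.00167), and without the parental doxorubicin library 3, which was at 419 CPM beside 177 and 221, it was -0.66 (adjusted p = 0.0696). Under the combination it was -0.89 ± 0.25 (adjusted p = 0.0125), and without the resistant combination library 2 it was -0.84 (adjusted p = 0.0577). With vehicle it was -0.30 ± 0.23 (adjusted p = 0.378) and the groups overlapped.

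AREG in decitabine tumours stood at 107, 95.3, 122 and 93.1 CPM in the parental libraries and at 60.2, 35.9 and 59.0 CPM in the resistant ones, with no overlap and a log2 difference of -1.01 ± 0.20 (adjusted p = 0.000392). Under the combination the groups also did not overlap, at -0.53 ± 0.19 (adjusted p = 0.0493). That call was lost without any 1 of 6 of the 7 libraries, parental combination 1, 2 and 4 and resistant combination 1, 2 and 3 (adjusted p from 0.0555 to 0.174), and with scaling by size factors or by the upper quartile (0.0575 and 0.0645). With vehicle AREG differed by -0.41 ± 0.18 (adjusted p = 0.107), and 1 parental library was at 138 CPM beside 67.0 to 83.7 in the others. Without the parental vehicle library 3 and the resistant decitabine library 2 the vehicle difference was -0.52 (adjusted p = 0.0278).

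**Figure D1:**
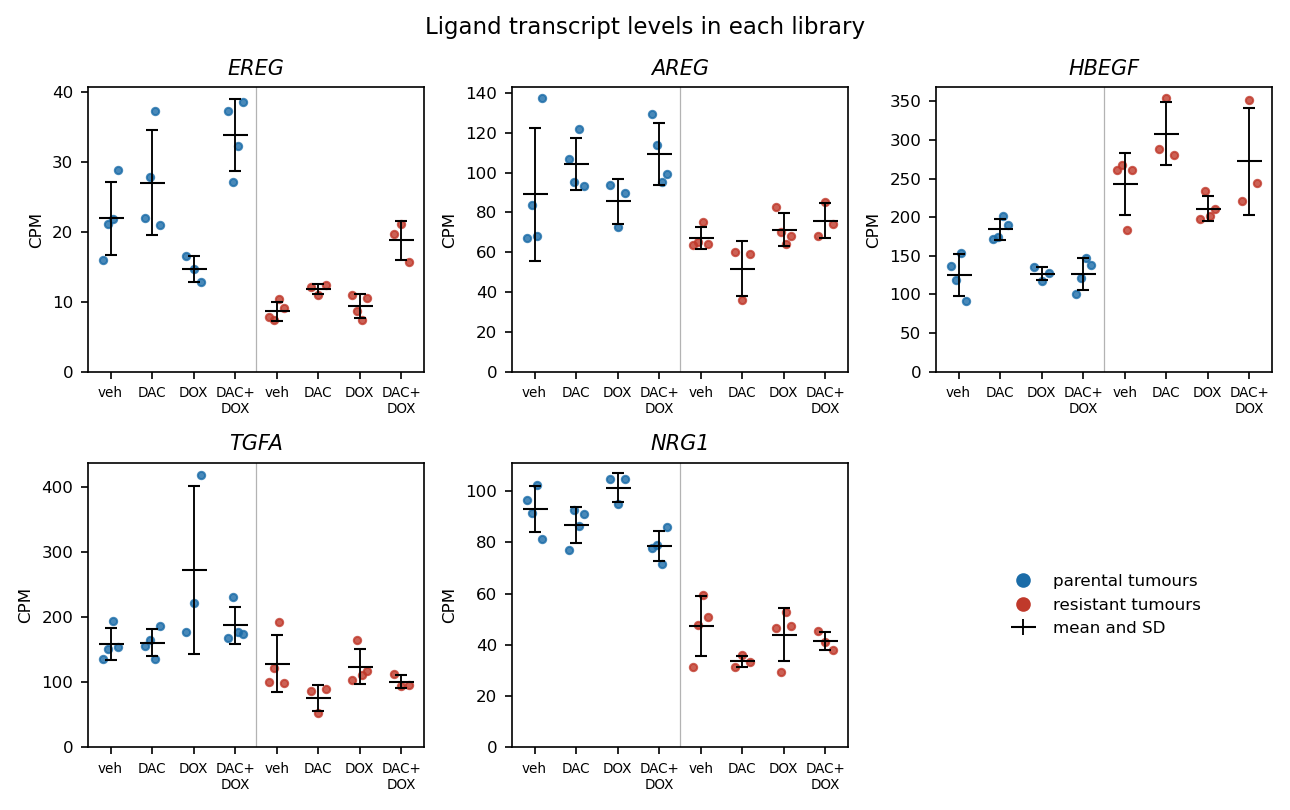
CPM of the 5 ligands (vertical axes) in each library of the 8 groups (horizontal axes: veh, vehicle; DAC, decitabine; DOX, doxorubicin), with the mean and SD in black. NRG1 parental libraries lie between 71.6 and 105 CPM and resistant ones between 29.2 and 59.5, while HBEGF is higher in resistant tumours in each treatment and EREG is highest with the combination in both lines.

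EGFR, the receptor of most of these ligands, was not called between the lines in any treatment. It ran from 113 to 176 CPM in parental tumours and from 102 to 210.2 in resistant ones, with medians of 147 and 146. Its mean log2 difference was 0.08 (95% interval -0.07 to 0.24), and the groups overlapped in all 4 treatments. The resistant decitabine tumours spread the most, at 210.2, 102 and 146 CPM, and their library at 102 was one of those that stood apart.

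ERBB2, the partner receptor without a ligand, ran from 14 to 20.5 CPM in parental tumours and from 17.0 to 24.5 in resistant ones. It passed with decitabine, at 15.8, 14, 16.4 and 15.1 CPM against 20.1, 22.9 and 19.2, which did not overlap (log2 difference 0.43 ± 0.13, adjusted p = 0.0146). That call was lost without the parental decitabine library 2 (adjusted p = 0.0547) or the resistant decitabine library 2 (0.0962). With the combination it was 0.31 ± 0.13 (adjusted p = 0.0833), and 0.41 (adjusted p = 0.0477) without the resistant combination library 2. Averaged over treatments it was 0.22 ± 0.06 (adjusted p = 0.00531), and 0.21 (0.135) when no gene was filtered out.

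ERBB3, the receptor of NRG1, was measured on 9 to 25 counts per library, between 2.09 and 5.65 CPM, and the standard errors of its log2 line difference in single treatments were 0.27 to 0.30. It passed in the mean over treatments alone, at 0.39 ± 0.14 (adjusted p = 0.0251), and not without the resistant combination library 3 (0.0603), with DESeq2 (0.0556) or with no filter (0.137). The related ERBB4 had 41 counts over all libraries and was not tested.

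MET did not keep 1 direction across treatments. In vehicle tumours it stood at 293, 281, 338 and 257 CPM in the parental libraries and at 211, 230.1, 258 and 229 in the resistant ones, which overlapped narrowly (log2 difference -0.33 ± 0.10, adjusted p = 0.023). In combination tumours it stood at 214, 237, 249 and 224 CPM in the parental libraries and at 317, 340 and 258 in the resistant ones, which did not overlap (0.40 ± 0.11, adjusted p = 0.012). The vehicle call was lost without the parental vehicle library 3 or the resistant vehicle libraries 1, 2 or 4 (adjusted p from 0.052 to 0.121) and the combination call without the resistant combination libraries 1 or 2 (0.0555 and 0.0904). With no filter neither passed (adjusted p = 0.113 and 0.0653).

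**Figure D2:**
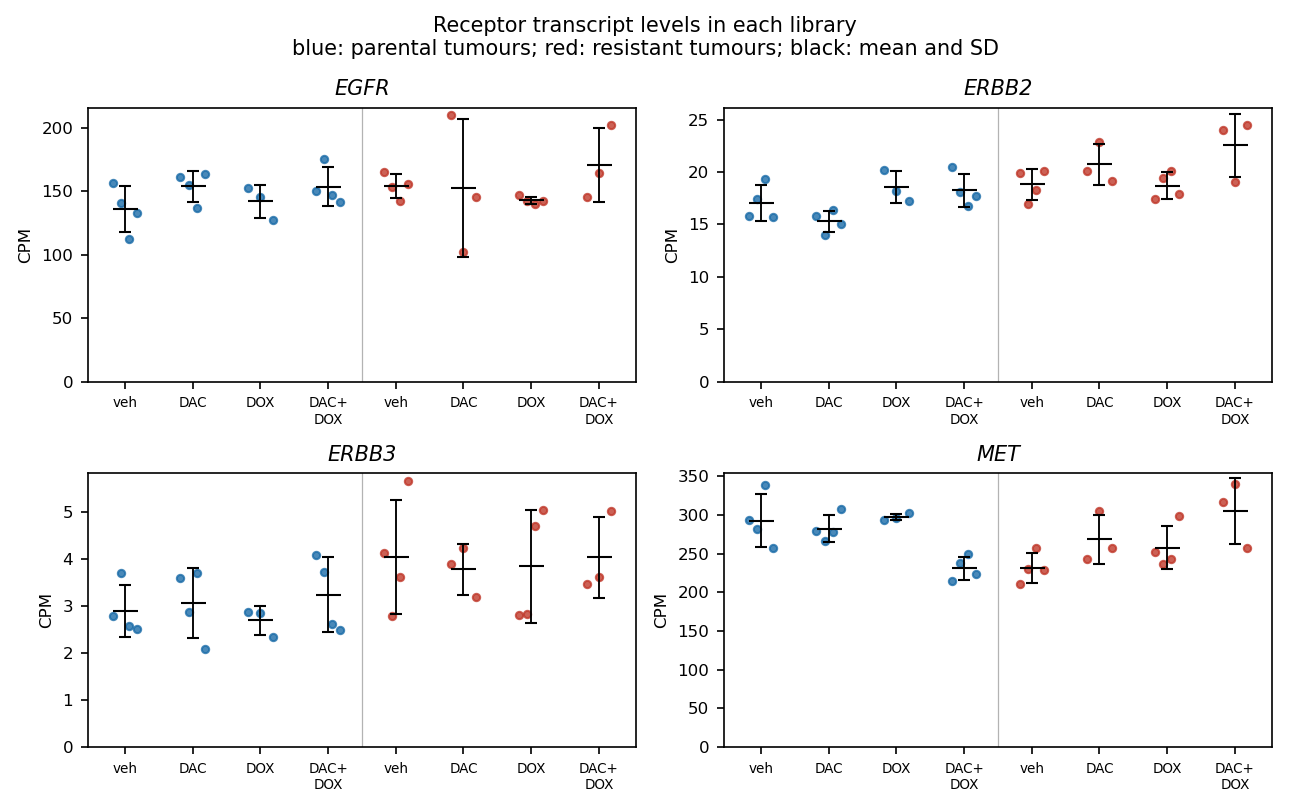
CPM of the 4 receptors (vertical axes) in each library of the 8 groups (horizontal axes, as for the ligands), with the mean and SD in black. EGFR medians are 147 CPM in parental and 146 in resistant tumours, and MET is at 214 to 249 CPM in the parental and 258 to 340 in the resistant combination tumours.

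Counted per treatment, 4 of the 9 members differed between the lines with vehicle, against 20.1% of all genes tested. The counts were 6 with decitabine against 26.8%, 4 with doxorubicin against 13.9% and 6 with the combination against 21.9%. EREG, HBEGF and NRG1 were in all 4 counts. Groups that did not overlap were found for 3 members with vehicle (EREG, HBEGF and NRG1) against 22.3% of all genes, for 6 with decitabine against 31.1%, for 4 with doxorubicin against 27.8% and for 6 with the combination against 28.9%. The called differences of EREG with vehicle and decitabine, of HBEGF and NRG1 in all 4 treatments, and of AREG and TGFA with decitabine held without any 1 library and under every other setting tried.

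Summed levels of several marker lists were also clear of overlap between the lines in some treatments. With vehicle, 6 mesenchymal genes summed to 5980 to 6420 CPM in resistant and 5190 to 5590 in parental tumours, although VIM had a lower median in resistant ones (2350 and 2480). Adipocyte sums with vehicle, at most 2.94 CPM, and lymphocyte sums with decitabine and the combination, at most 0.617 CPM, were higher in resistant tumours. The summed level of 6 endothelial genes was 8.14 to 10.4 CPM in resistant and 11.0 to 17.0 in parental vehicle tumours, and 6.48 to 13.3 against 16.0 to 21.0 with doxorubicin, which did not overlap. The endothelial sums overlapped with decitabine (15.5 to 17.5 against 13 to 16.3) and the combination (17.3 to 32.6 against 18.1 to 22.1). PECAM1 made up most of the vehicle difference, with medians of 5.33 and 13.4 CPM, while CDH5 (0.818 and 0.357) and TEK (1.29 and 0.666) had higher medians in resistant tumours. With doxorubicin, 5 epithelial genes summed to 510 to 587 CPM in resistant and 706 to 969 in parental tumours, and 8 myeloid genes to 21.3 to 34.4 against 35.1 to 42.5. Within these lists KRT19 (medians 285 and 476 CPM) and EPCAM (7.39 and 21.7) had lower medians in resistant tumours but KRT8 (38.7 and 29.4) and CDH1 (118 and 108) higher, and CD68 was lower (17.2 and 30.0) but CD14 (0.624 and 0.261) and AIF1 (1.12 and 0.261) higher. With decitabine, 5 luminal genes summed to 63.6 to 64.3 CPM in resistant and 41.4 to 49.9 in parental tumours, and with doxorubicin to 51.4 to 63.3 and 30.5 to 48.1. Their part in the ligand differences was not tested.

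**Figure D3:**
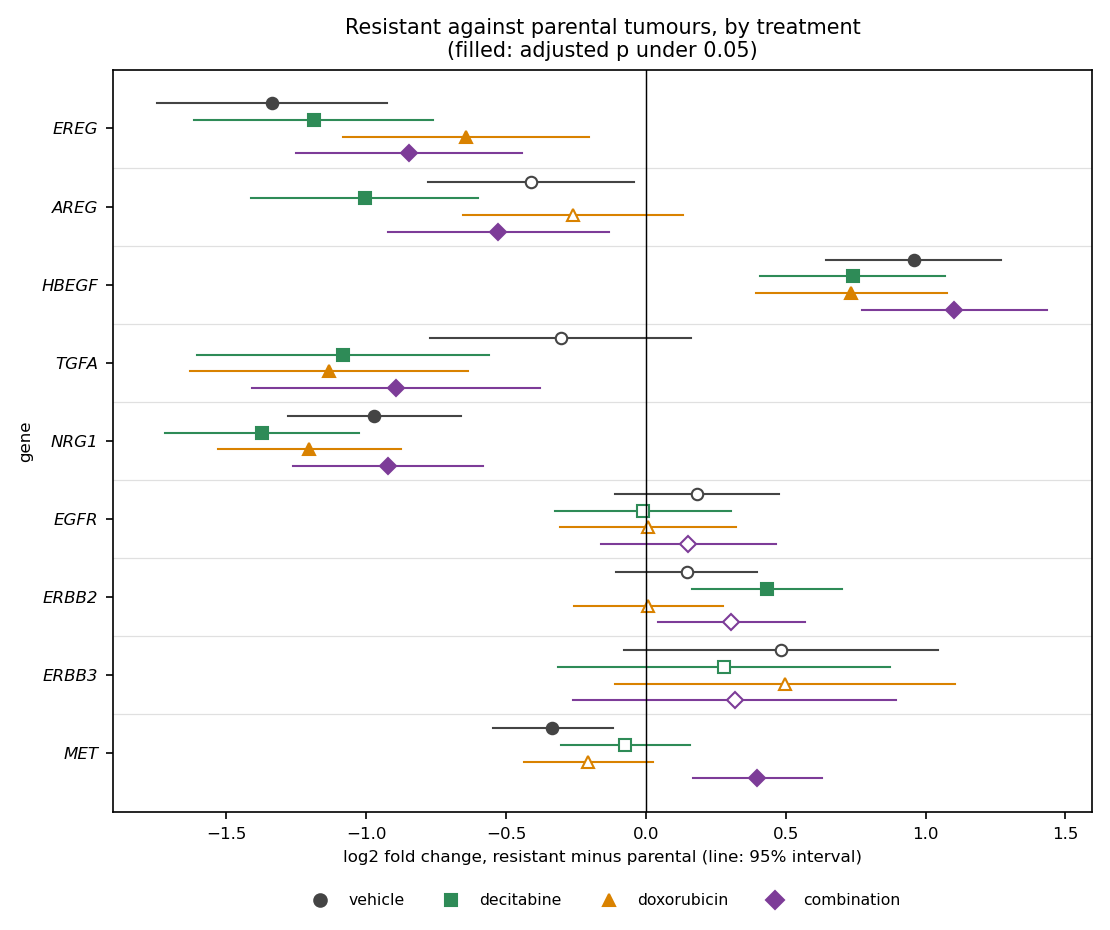
Log2 fold change of each gene, resistant minus parental (horizontal axis), with its 95% interval, for the 4 treatments; filled symbols passed an adjusted p of 0.05. NRG1 and EREG lie left of 0 and HBEGF right of 0 in all 4, and MET lies at -0.33 with vehicle and at 0.40 with the combination.

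EREG was the only member called against vehicle in any of the 6 drug groups. In resistant tumours it stood at 7.77, 7.35, 10.4 and 9.04 CPM with vehicle, at 12.1, 11.0 and 12.4 with decitabine, at 11.0, 8.72, 7.38 and 10.5 with doxorubicin and at 19.7, 21.0 and 15.7 with the combination. The 3 combination libraries lay above all 11 other resistant libraries. Combination minus vehicle, the log2 change was 1.11 ± 0.21 (adjusted p = 0.00509), a rise from 8.64 ± 1.38 (SD, n = 4) to 18.8 ± 2.79 CPM (SD, n = 3). It held without any 1 library (adjusted p from 0.00627 to 0.0406) and under every other setting. This was 1 member of 9, against 1.13% of all genes tested.

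In parental tumours EREG stood at 16.0, 21.1, 21.9 and 28.7 CPM with vehicle, at 22.0, 27.8, 37.2 and 20.9 with decitabine, at 16.5, 14.7 and 12.8 with doxorubicin and at 37.2, 27.1, 32.3 and 38.5 with the combination. The combination libraries overlapped vehicle and decitabine but not doxorubicin. Against vehicle the change was 0.62 ± 0.18 (adjusted p = 0.075), which passed without the parental vehicle library 4 (0.79, adjusted p = 0.0402) or with no filter (0.0371). With doxorubicin alone EREG was lower than vehicle by a log2 value of -0.57 ± 0.21, which did not pass (adjusted p = 0.268).

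Adding decitabine to doxorubicin, a comparison that asks what the second drug added, raised EREG in both lines. Combination minus doxorubicin, the log2 change was 1.20 ± 0.20 in parental tumours (adjusted p = 0.00415) and 0.99 ± 0.21 in resistant tumours (adjusted p = 0.015). EREG was the only member called in either, against 0.304% and 0.66% of all genes. The parental call was lost without the parental doxorubicin library 3 (1.12, adjusted p = 0.0527). The resistant call was lost without the resistant combination libraries 1 or 2 or the resistant doxorubicin libraries 2 or 3 (adjusted p from 0.0647 to 0.101), or when only the compared groups entered the fit (0.0543). In parental tumours NRG1, MET and AREG also did not overlap between combination and doxorubicin, at -0.37 ± 0.16, -0.36 ± 0.11 and 0.35 ± 0.19 (adjusted p = 0.357, 0.204 and 0.483), so that 4 members were clear of overlap against 12.6% of all genes, and in resistant tumours EREG alone was, against 12.7%. These comparisons share the combination libraries with those against vehicle.

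The endothelial sums did not overlap between combination and vehicle in either line. In resistant tumours its 6 genes summed to 17.3 to 32.6 CPM with the combination, 8.14 to 10.4 with vehicle and 6.48 to 13.3 with doxorubicin, and in parental tumours to 18.1 to 22.1 with the combination, 11.0 to 17.0 with vehicle and 16.0 to 21.0 with doxorubicin. In parental tumours the doxorubicin sums overlapped the combination sums. Most of the endothelial sum was PECAM1, at 11.7 to 23.0 CPM in resistant combination tumours and 4.97 to 7.24 with vehicle. In the same groups CDH5 (medians 3.82 and 0.818 CPM) and TEK (1.81 and 1.29) were higher with the combination, and KDR lower (0.242 and 0.479). In parental tumours TEK was at 2.02 to 2.61 CPM with the combination and 0.228 to 1.29 with vehicle, and KDR had medians of 0.675 and 0.69. VWF and EMCN were at most 0.565 and 0.654 CPM in any library. In resistant tumours the 6 mesenchymal genes summed to 5510 to 5910 CPM with the combination and 5980 to 6420 with vehicle. Their part in the change of EREG was not tested.

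Against vehicle, MET had opposite signs under the combination in the parental and the resistant line, and passed in neither. Parental vehicle libraries at 293, 281, 338 and 257 CPM all lay above the combination libraries at 214, 237, 249 and 224 (log2 change -0.34 ± 0.10, adjusted p = 0.096). Resistant vehicle libraries at 211, 230.1, 258 and 229 CPM all lay below the combination libraries at 317, 340 and 258 (0.39 ± 0.11, adjusted p = 0.0861), the nearest pair of libraries being all but equal. The resistant change passed with DESeq2 (adjusted p = 0.0323) and without the resistant combination library 3 (0.0344). No other member of parental combination tumours stood clear of vehicle, against 10.1% of all genes, and in resistant ones EREG and MET did, against 13.4%. In parental tumours 7 fibroblast genes summed to 357 to 770 CPM with the combination and 798 to 1240 with vehicle. COL1A1 (medians 502 and 839 CPM) and COL3A1 (71.3 and 161) made up most of that sum, while DCN (0.595 and 0), LUM (0.778 and 0) and PDGFRA (2.48 and 2.12) had higher medians with the combination, and their part was not tested.

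The difference between the lines in this response was tested directly. For MET the interaction was 0.73 ± 0.15 (95% interval 0.42 to 1.05), with an adjusted p of 0.0601 that missed the threshold. It passed with DESeq2 (adjusted p = 0.0047), with no filter (0.013) and without the parental combination library 3 (0.0472) or the resistant combination library 3 (0.0347). In edgeR 0 of the 9 members passed, 1 at an unadjusted p under 0.05, against 0.0222% of all genes (3 of 13495). The fit with no filter called 1109 of 30339 genes in this contrast. The fit without the parental combination library 3 called 27 of 13471. DESeq2 called 1, MET, and 214 of the 6832 genes to which it gave an adjusted p. For EREG the combination response of the lines differed by 0.49 ± 0.28 (95% interval -0.08 to 1.06, adjusted p = 0.305).

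**Figure D4:**
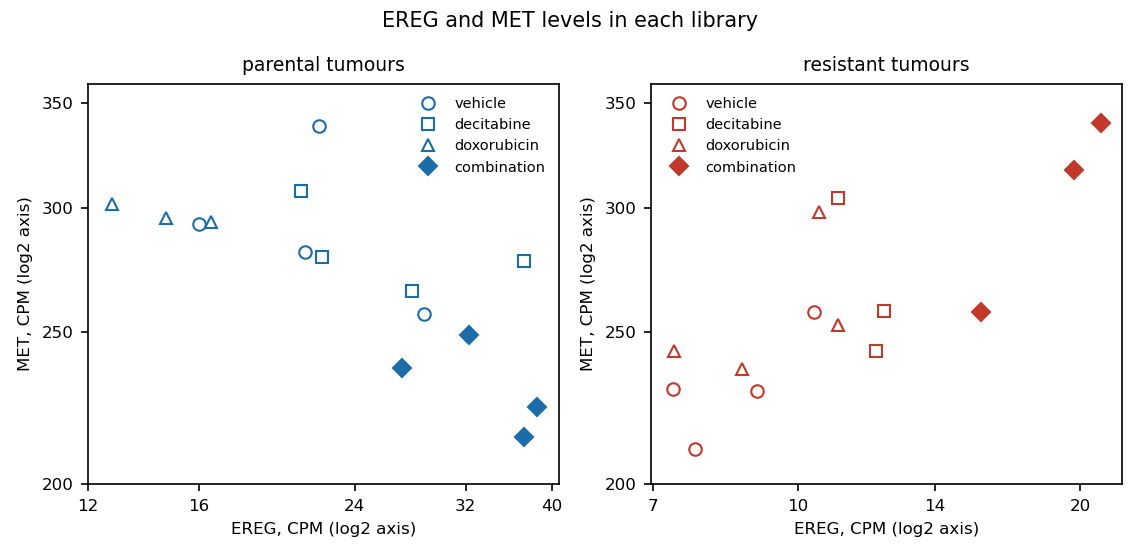
MET against EREG, both in CPM on log2 axes, with 1 point per library in parental (left) and resistant (right) tumours and combination libraries filled. Combination libraries lie at high EREG in both panels, at 214 to 249 CPM of MET in parental tumours and at 258 to 340 in resistant tumours.

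With decitabine alone, HBEGF had the largest log2 value against vehicle of the 9 members in parental tumours. Its vehicle libraries at 137, 119, 154 and 91.2 CPM all lay below decitabine libraries at 172, 174, 201 and 189.9. The log2 change was 0.56 ± 0.15, just short of the threshold (adjusted p = 0.0543), and it passed with DESeq2 (0.0221), with no filter (0.00573), and without the parental vehicle library 1 (0.0353). With the combination its libraries ran from 100.2 to 147 CPM and overlapped vehicle (0.02 ± 0.15). In resistant tumours HBEGF was at 261, 268, 183 and 261 CPM with vehicle and at 288.5, 355 and 281 with decitabine (0.34 ± 0.16, adjusted p = 0.238).

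In resistant tumours the largest log2 values with decitabine were those of TGFA and NRG1, and neither passed. TGFA was at 101, 122, 192 and 98.1 CPM with vehicle and at 85.9, 52.3 and 89.0 with decitabine, without overlap (log2 change -0.76 ± 0.25, adjusted p = 0.0945, and 0.000135 with no filter). NRG1 was at 31.3, 47.9, 59.5 and 50.9 CPM with vehicle and at 31.4, 35.9 and 33.4 with decitabine (-0.50 ± 0.17, adjusted p = 0.0973). Without the resistant vehicle library 1, its lowest, NRG1 passed (-0.64, adjusted p = 0.0264). AREG and EREG did not overlap between these groups either, at -0.37 ± 0.20 and 0.45 ± 0.23 (adjusted p = 0.301 and 0.259). The endothelial sum was 15.5 to 17.5 CPM with decitabine and 8.14 to 10.4 with vehicle, the mesenchymal sum 5190 to 5260 and 5980 to 6420, and their part was not tested.

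For decitabine against vehicle edgeR called 0 of 9 members in parental tumours, 1 at an unadjusted p under 0.05, against 1.67% of all genes. DESeq2 called 1, HBEGF, and 489 of the 12984 genes to which it gave an adjusted p. In resistant tumours it called 0, with 3 at an unadjusted p under 0.05 and 0 with DESeq2, against 3.33% of all genes. Groups did not overlap for 1 parental member (HBEGF), against 9.46% of all genes, and for 4 resistant members (EREG, AREG, HBEGF and TGFA), against 16%. The combination gave 0 calls in parental tumours, 2 at an unadjusted p under 0.05 and 0 with DESeq2, against 1.03% of all genes. No member had a called difference between the lines in the decitabine response, with 2 at an unadjusted p under 0.05 and 0 with DESeq2, against 0.119% of all genes, and those were AREG (-0.59 ± 0.27) and TGFA (-0.78 ± 0.34).

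Doxorubicin alone called 0 members in either line. In parental tumours 2 members had an unadjusted p under 0.05 and DESeq2 called 0, against 0.23% of all genes, and no member's groups were clear of overlap, against 10.8%. Those were EREG and TGFA, the latter at 136, 151, 194 and 154 CPM with vehicle and 177, 221 and 419 with doxorubicin (log2 change 0.78 ± 0.24, adjusted p = 0.171, and 0.000166 with no filter). In resistant tumours 0 members had an unadjusted p under 0.05 and DESeq2 called 0, against 0% of all genes, and every member's groups overlapped, where 3.89% of all genes had groups that did not. For the difference between the lines in the doxorubicin response edgeR and DESeq2 each called 0 members and 0% of all genes passed in edgeR, with EREG (0.69 ± 0.29) and TGFA (-0.83 ± 0.33) at an unadjusted p under 0.05.

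EGFR, ERBB2 and ERBB3 were not called with any drug. The largest log2 value of EGFR against vehicle was 0.18 ± 0.14, in parental decitabine tumours (95% interval -0.11 to 0.47). ERBB2 had its largest in resistant combination tumours, at 24.03, 19.1 and 24.5 CPM against 19.9, 17.0, 18.3 and 20.1 with vehicle (0.26 ± 0.13, 95% interval -0.003 to 0.53, adjusted p = 0.326). ERBB3 intervals were wide, from -0.58 to 0.57 in the same comparison.

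**Figure D5:**
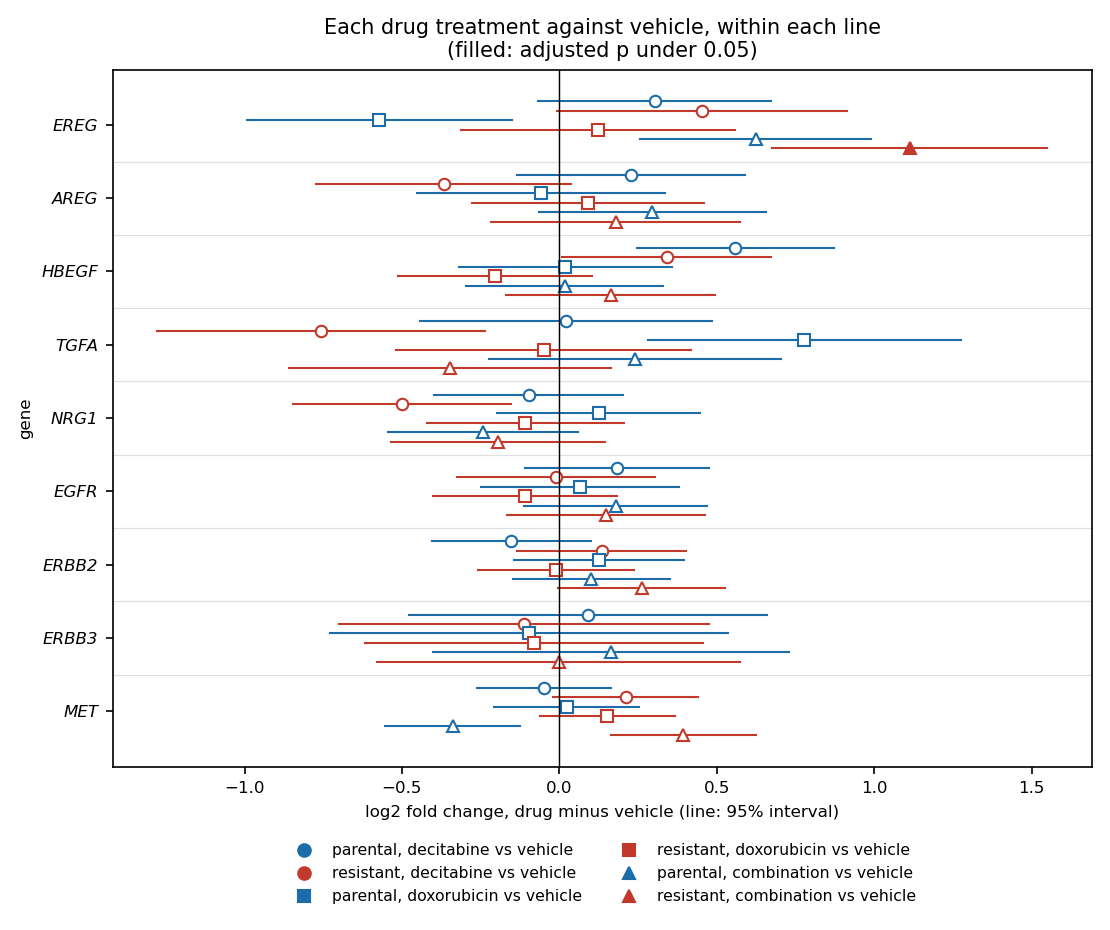
Log2 fold change of each gene against vehicle (horizontal axis) with its 95% interval, for the 3 drug treatments in parental (blue) and resistant (red) tumours; filled symbols passed an adjusted p of 0.05. EREG in resistant combination tumours, at 1.11, is the only filled symbol, and the MET triangles lie at -0.34 in parental and 0.39 in resistant tumours.

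Ordered by mean level, the 8 groups of EREG ran from parental combination (33.8 ± 5.20 CPM, SD, n = 4) through parental decitabine, parental vehicle, resistant combination, parental doxorubicin, resistant decitabine and resistant doxorubicin to resistant vehicle (8.64 ± 1.38, n = 4). Neighbours in this order overlapped except parental doxorubicin and resistant decitabine. For NRG1 the 4 parental groups, from doxorubicin at 101 ± 5.70 (n = 3) to the combination at 78.6 ± 5.90 (n = 4), stood above the 4 resistant groups, which ended with decitabine at 33.6 ± 2.22 (n = 3). HBEGF ran from resistant decitabine (308 ± 40.6, n = 3) to parental vehicle (125 ± 26.6, n = 4), with a gap only between parental decitabine (184 ± 13.8, n = 4) and parental doxorubicin (127 ± 8.68, n = 3).

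TGFA ran from parental doxorubicin (273 ± 129, n = 3) to resistant decitabine (75.7 ± 20.4, n = 3), and AREG from parental combination (109 ± 15.5, n = 4) to resistant decitabine (51.7 ± 13.7, n = 3). In both, the one pair of neighbours that did not overlap was the last. MET ran from resistant combination (305 ± 42.3, n = 3) to parental combination (231 ± 15.1, n = 4), so that the same treatment stood at both ends. EGFR ran from 171 ± 28.9 (resistant combination, n = 3) to 136 ± 18.2 (parental vehicle, n = 4), ERBB2 from 22.6 ± 3.00 (resistant combination, n = 3) to 15.3 ± 1.02 (parental decitabine, n = 4) and ERBB3 from 4.04 ± 1.20 (resistant vehicle, n = 4) to 2.69 ± 0.30 (parental doxorubicin, n = 3). Neighbouring groups of MET, EGFR, ERBB2 and ERBB3 all overlapped.

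Of 7 further ligands of these receptors, 2 passed the filter. NRG2, a neuregulin of ERBB3 and ERBB4, was higher in resistant tumours, at 9.36 against 3.79 CPM in the mean over treatments (log2 difference 1.30 ± 0.15, adjusted p = 3.41e-08), opposite to NRG1. BTC (betacellulin) was lower, at 1.48 against 2.20 CPM (-0.68 ± 0.27, adjusted p = 0.0391). EGF had 14 counts over all libraries, EPGN 5, HGF (the ligand of MET) 37, and NRG3 and NRG4 were at 0.

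Genes that release, carry or damp the signal are described by counts over lists. In the mean over treatments, 46% of all genes tested were called between the lines. There, 3 of 8 genes of ligand shedding were higher and 0 lower in resistant tumours. The list median was 0.04, beside -0.003 for all genes tested. TIMP3, an inhibitor of the sheddases, had the largest difference, at 2690 against 1255 CPM (1.10 ± 0.09, adjusted p = 2.5e-11), and RHBDF1 and FURIN were higher by 0.32 and 0.24. Of 18 genes of feedback and receptor down-regulation, 2 were higher and 7 lower (median -0.15). ERRFI1, which binds and inhibits EGFR, stood at 365 against 687 CPM (-0.97 ± 0.15, adjusted p = 6.42e-06), and DUSP5, a nuclear ERK phosphatase, at 263 against 192 (0.45 ± 0.06).

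Of 14 adaptors and effectors, 4 were higher and 3 lower (median 0.04), with SRC at -0.53 ± 0.11 and STAT3 at 0.47 ± 0.08. The RAS-MAPK core had 1 call in 12 genes (median 0.04), NRAS at 21.1 against 35.0 CPM (-0.73 ± 0.09), and the PI3K-AKT core had 3 higher and 3 lower of 12 (median -0.02), led by TSC1 at 0.64 ± 0.08. Of 19 tested genes that ERK signalling induces, 3 were higher and 5 lower (median -0.13), among them EPHA4 at 7.21 against 14.3 CPM (-0.996 ± 0.12) and FOSL1 at 0.56 ± 0.09. Of 20 other tested receptor tyrosine kinases, 5 were higher and 6 lower (median -0.04), with EPHB2 at 51.7 against 109 CPM (-1.07 ± 0.07) and PTK7 at 14.8 against 30.1 (-1.01 ± 0.12). Of 6 genes of MET ligand activation, 2 were tested, and SPINT2, an inhibitor of the activating proteases, was lower (-0.59 ± 0.10). In all, 21 of 107 pathway genes were higher and 27 lower, a share near the 46% of all genes. Single treatments gave 8 higher and 14 lower with vehicle (20.1% of all genes were called), 16 and 12 with decitabine (26.8%), 5 and 12 with doxorubicin (13.9%), and 13 and 16 with the combination (21.9%).

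With decitabine 0 of 107 pathway genes were higher and 2 lower in parental tumours, against 1.67% of all genes, and 3 were higher and 2 lower in resistant tumours, against 3.33%, shares near those of all genes. Decitabine lowered RHBDF1, an iRhom needed for sheddase maturation (-0.79 ± 0.16, adjusted p = 0.0182), and FOS, at 10.1 against 39.2 CPM (-1.95 ± 0.44, adjusted p = 0.0313), in parental tumours. In resistant tumours it raised SRC (0.91 ± 0.23, adjusted p = 0.0277), PIK3R1 (0.52 ± 0.14) and DDR2 (1.28 ± 0.32) and lowered ERRFI1, at 222 against 526 CPM (-1.24 ± 0.31, adjusted p = 0.0255), and SPRY2 (-0.80 ± 0.20). Calls of pathway genes were not recomputed without the parental vehicle library 3 and the resistant decitabine library 2, which stood apart. The combination raised SPHK1 in parental tumours (0.81 ± 0.19, adjusted p = 0.0338), the only one of 107 called there by edgeR, against 1.03% of all genes. In resistant combination tumours edgeR called 0 of 107, with 19 at an unadjusted p under 0.05 and 2 with DESeq2 (PIK3R1 and LRIG1, both higher), against 1.13% of all genes. In combination against doxorubicin edgeR and DESeq2 each called 0 of 107 in either line, against 0.304% of all genes in parental and 0.66% in resistant tumours in edgeR, with 16 parental and 13 resistant genes at an unadjusted p under 0.05. With doxorubicin alone both tools called 0, against 0.23% and 0% of all genes in edgeR, with 11 parental and 2 resistant genes at an unadjusted p under 0.05.

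Each member was also compared with all genes tested, by the lower of its Pearson correlations over the 15 parental and the 14 resistant libraries, as a description over libraries that share treatments and depth. The genes most like EREG were PLA2G4C (0.80 in both lines), MX1 (0.79 and 0.84) and ALDH1A3 (0.80 and 0.79). HBEGF was most like UTP18 (0.85 and 0.83), RFC3 (0.92 and 0.83) and ATAD2 (0.84 and 0.82), and TGFA like PKIA (0.86 and 0.81), PTGS2 (0.80 and 0.80) and HAS2 (0.80 and 0.82). MET was most like MRPL24 (0.87 and 0.87), MRPL27 (0.86 and 0.82) and RBM45 (0.78 and 0.80), and AREG like RAB2A (0.71 and 0.73), OSGIN2 and PROS1. EGFR was most like SRPX, DPY19L4 and CMC1, ERBB2 like EPS8L1, LINC01833 and YIPF6, ERBB3 like PROSER1, KIN and MCM3AP-AS1, and NRG1 like CDH4, ANO10 and AXL (0.64 and 0.65), AXL being another receptor tyrosine kinase.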

How the data were processed

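RNA of 29 snap-frozen xenograft tumours was profiled with the Lexogen QuantSeq forward kit. The authors deposited gene counts that were raw and whole-numbered. Cutadapt, STAR 2.7.3a, featureCounts, DESeq2 and GRCh38.p10 are named, per the submitters' processing notes. The annotation release, the strand setting and the handling of mouse reads are not given in the sources used here, so human-aligned mouse reads may be included.

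The counts were filtered with filterByExpr (minimum count 10), scaled by trimmed mean of M-values and fitted with edgeR 4.0.16 in R 4.3.3 (quasi-likelihood test, 8 group means, 21 residual degrees of freedom). P-values were adjusted by Benjamini-Hochberg over all 13495 genes in each contrast. The code was tested on simulated data. Within groups, all pairs of libraries differed by more than sampling noise (chi-square over its degrees of freedom at least 3.65). The labels give no sequencing batch or date.

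The members, lists and tests were chosen with earlier results of these data known. Genes named are the members, up to 4 called genes per pathway list, where none is called up to 2, not all of them printed, and the 3 most similar genes per member. Alternatives were other scalings and filters, a replicate block, fits of the compared groups only, fits without 1 library or without the 2 libraries that stood apart, and DESeq2 1.42.0. For pathway genes DESeq2 was the only alternative.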

Additional observations from a re-analysis of the deposited data

Results flagged for a closer look

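Of 45 member groups of 4 libraries, 3 held a library far from the others, and chance alone would mark about 1 in 20 groups. AREG was at 75.07 CPM in the resistant vehicle library 3, beside 63.61 to 65.11 CPM in the other resistant vehicle libraries. HBEGF was at 182.9 CPM in the same library, beside 260.8 to 267.6 CPM. TGFA was at 230.5 CPM in the parental combination library 2, beside 167.4 to 177.8 CPM.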

How the results depend on the processing

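Only the 52 member results with a call or an unadjusted p under 0.05 in the edgeR fit of all libraries were recomputed here. That choice left little room for a change of direction, and none occurred in 1027 recomputed values. Of these values 942 kept their side of the threshold, 63 lost their call and 22 gained one. The number of members called moved by more than 1.5 times as follows. With no filter on low counts it became 1 in parental decitabine, doxorubicin and combination tumours and in resistant decitabine tumours, 2 in parental combination against doxorubicin, and 1 in each of the 3 line differences in response. With DESeq2 it became 1 in parental decitabine tumours, 2 in resistant combination tumours and 1 in the line difference in combination response. Without the parental vehicle library 3 and the resistant decitabine library 2 it became 1 in parental decitabine tumours and 2 in resistant combination tumours. With only the compared groups it became 0 in resistant combination against doxorubicin. Without 1 library at a time, the line difference was called for 3 to 4 members with vehicle, 5 to 6 with decitabine, 2 to 4 with doxorubicin, 4 to 6 with the combination and 6 to 7 in the mean. The same fits gave 0 to 1 in parental decitabine, parental combination and resistant decitabine tumours, 1 to 2 in resistant combination tumours, 0 to 1 in combination against doxorubicin in either line and in the line difference in combination response, and 0 in the others. Same-numbered libraries had mean deviation correlations of 0.12 (parental, over 0.1 in 9 of 21 pairs) and 0.033 (resistant, 6 of 19). Differently numbered libraries had means of -0.04 (parental) and -0.011 (resistant). Library names lack a number within the parental doxorubicin group and just before the first resistant decitabine library, while replicate numbers run on. The same replicate number may therefore not mark the same position in every group. Whether the replicate numbers pair libraries was thus not settled. With the replicate block within lines, which by construction leaves the line difference to libraries numbered 1, the count became 2 with doxorubicin, 2 with the combination, 3 in the mean and 1 in parental decitabine tumours. A replicate block shared by both lines, added after seeing the data, gave 4, 6, 4, 5 and 7 for the line differences. ERBB3 was measured on 9 to 25 counts per library and EREG on 29 to 200.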

Other observations

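The levels of EREG and MET ran against each other in parental tumours and together in resistant tumours, a pair chosen after its values were seen among the 36 pairs of members. Over the 15 parental libraries Pearson's r of the log2 levels was -0.73 and Spearman's rho -0.80, and r was -0.67 without the 2 libraries farthest from the median of EREG. Over the 14 resistant libraries r was 0.78 and rho 0.82, and r was 0.52 without the 2 farthest, both of them combination libraries. Within groups, as deviations from the group means, r was -0.49 in parental and 0.57 in resistant tumours. EREG and its neighbour AREG had r = 0.66 in parental and 0.24 in resistant tumours, and within groups 0.58 and 0.50. These values describe libraries that share treatments and carry no test.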
